A study of Homo sapiens with 2 samples.

Results

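The genes described here are the nuclear long non-coding RNAs NEAT1 and MALAT1 and 7 genes of paraspeckle proteins, SFPQ, NONO, PSPC1, RBM14, TARDBP, DAZAP1 and CPSF6. They were taken by symbol from a table of 54261 features, and all 9 were found. Each of the 9 also passed the filter on low values, a CPM (reads per 1000000 reads of the library, after scaling) of 1 or more in at least 1 library, which 12925 features passed. They were selected on earlier results of these same 2 libraries, the counts and log2 ratios of siHNRNPM over control, so their values are given as a description.

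The siHNRNPM library came from RKO cells transfected with siRNA against HNRNPM, whose genotype label is HNRNPM knockdown. The control library came from RKO cells transfected with the control siRNA siNC, whose genotype label is WT. RKO is a human colorectal carcinoma line, and both groups were of this 1 line. The sources used here state neither the siRNA sequences nor their dose or the hours between transfection and harvest. There was 1 library per group, so no difference below has a replicate check, and no test was possible. Each interval is a 95% interval for counting error in the 2 libraries only. PCR copies are not independent molecules, and the variation between cultures was not measured.

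Paraspeckles are ribonucleoprotein bodies of the nucleus that are built on the long isoform of NEAT1. Proteins of the DBHS family, SFPQ, NONO and PSPC1, coat this RNA, and the bodies can hold back proteins and RNAs in the nucleus. MALAT1 is transcribed from a gene beside NEAT1 and sits mostly in nuclear speckles, the neighbouring bodies rich in splicing factors. HNRNPM encodes an hnRNP protein that takes part in splicing and has been reported to bind SFPQ and NONO. The short isoform of NEAT1 ends in a poly(A) tail, whereas the long isoform and MALAT1 are cut by RNase P and end in a triple helix.

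Both transcripts lie on the plus strand of chromosome 11 (GRCh38, GENCODE release 29), NEAT1 from 65422774 to 65445540 and MALAT1 from 65497688 to 65506516. GENCODE lists 8 transcripts for NEAT1, among them the unspliced NEAT1-202 of 22743 bases and the short, spliced NEAT1-201 of 3441 bases. The deposited counts give 1 value per gene, so the isoforms could not be told apart. The region of the poly(A) site of the short isoform is shown first, because CPSF6 belongs to a factor known to act there. It is read from NEAT1-202 at chr11:65426333-65426542 and holds an AATAAA at base 3706 of the transcript, taken here as the poly(A) signal of the short isoform. The annotated end of NEAT1-201, at 65426457, lies upstream of this signal. Capitals mark the signal AATAAA and each TGTA, the letters that the cleavage factor made of CPSF6 and NUDT21 is known to bind.
NEAT1, poly(A) site of the short isoform: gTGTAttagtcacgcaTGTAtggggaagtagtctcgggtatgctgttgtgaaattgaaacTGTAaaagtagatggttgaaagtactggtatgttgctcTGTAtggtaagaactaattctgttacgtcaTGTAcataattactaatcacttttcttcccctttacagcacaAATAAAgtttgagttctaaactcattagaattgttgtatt
The 170 bases before the signal hold 5 copies of TGTA on the transcript strand. Of 10009 protein-coding genes with AATAAA in the last 50 bases of their longest transcript, 262 (2.62%) had 5 or more in a window of that length, and the median was 1. The window length was set after this sequence was seen. Between the last TGTA and AATAAA lie 38 bases, of which 26 are C or T. HNRNPK, a protein that binds C-rich RNA, is known to block polyadenylation at this site.

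The ends of the long transcripts are shown because MALAT1 and long NEAT1 share the way in which they are made. The end of NEAT1-202 is at chr11:65445431-65445540. That of MALAT1 is at chr11:65506007-65506116, the bases of MALAT1-202 before the tRNA-like small RNA annotated inside it. Capitals mark stretches of 10 or more bases that occur in both ends.
NEAT1, end of the long isoform: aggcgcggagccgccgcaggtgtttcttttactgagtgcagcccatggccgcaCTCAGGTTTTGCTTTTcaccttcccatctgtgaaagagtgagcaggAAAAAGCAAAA
MALAT1, end before the small RNA: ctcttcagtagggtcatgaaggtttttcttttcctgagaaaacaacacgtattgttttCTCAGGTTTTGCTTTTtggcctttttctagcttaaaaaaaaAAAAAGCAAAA
The shared stretches are a T-rich element and the A-rich end, which are known to be parts of the triple helix that protects both RNAs. A further feature sets the RNAs apart and concerns TARDBP, whose protein TDP-43 binds repeats of UG. NEAT1-202 holds an unbroken run of 29 GT units, 58 bases from base 21468 of the transcript. It is in capitals below, with 20 bases on either side, and the whole stretch is chr11:65444245-65444342.
NEAT1, longest GT run: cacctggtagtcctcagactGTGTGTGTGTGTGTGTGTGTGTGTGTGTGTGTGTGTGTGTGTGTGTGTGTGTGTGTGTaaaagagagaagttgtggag
The longest such run in MALAT1-202 is 6 bases. The letters GTGTGTGT occurred on the transcript strand in 5 of 22 windows of 1000 bases of NEAT1-202 and in 0 of 8 of MALAT1-202. They occurred in 4.61% of 83482 such windows of the longest transcript of every other gene. On the other strand there was 1 match in NEAT1-202 and 0 in MALAT1-202.

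Reads counted in genes numbered 13056118 for siHNRNPM and 19931360 for control. HNRNPM, the targeted gene, had 79.6 CPM (1042 reads) in the siHNRNPM library against 144 CPM (2870 reads) in the control library. It was thus at 55.2% of the control level (51.3 to 59.2), in the direction of the label. In bulk RNA, fewer cells that express a gene and less RNA per cell cannot be told apart. Among 12925 measured genes, 317 (2.45%) had a ratio of 2 or more with an interval that left out 1, and 193 (1.49%) were as far below. Intervals lay above 1 for 2849 genes (22%) and below 1 for 3377 (26.1%). Which side held more genes depended on the scaling, and upper-quartile scaling gave 3350 above and 2876 below. Shares differed with abundance. Of the 2451 genes whose mean CPM reached 100, 0.163% were at least 2-fold higher and 0.0408% at least 2-fold lower. The intervals of 31.1% of these lay above 1 and those of 38.8% below it.

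NEAT1 was the member that differed most. It had 2165 CPM (28330 reads) in the siHNRNPM library and 999 CPM (19861 reads) in the control library. The siHNRNPM library was 2.17-fold higher (2.13 to 2.21), a log2 ratio of 1.12 (1.09 to 1.14), although it was the shallower library. NEAT1 was the 25th most abundant gene of the siHNRNPM library and the 83rd of the control library. Its log2 ratio was the highest of the 482 genes whose mean CPM reached 300. Among the 2451 whose mean CPM reached 100 it ranked 3rd, after SEMA3A, which encodes a secreted guidance protein, and the heme oxygenase gene HMOX1. The rank fell as genes of lower level were let in. NEAT1 was 6th of the 4832 genes whose mean CPM reached 50 and 22nd of the 9469 that reached 10. Among all measured genes it was 280th. Of 111 other genes whose mean CPM lay between 0.5 and 2 times that of NEAT1, 0 had a higher ratio, and 95% of them fell between -0.42 and 0.39. The isoform that carried the additional reads is not known from these counts.

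Hepatocyte markers were also higher in the siHNRNPM library. Their 12 genes summed to 35.0 CPM (458 reads) there, with 9 of 12 read, and to 0.754 CPM (15 reads) in the control library, with 5 of 12 read. SERPINA1, AFP and ALB had 177, 174 and 77 reads in the siHNRNPM library, against 6, 1 and 0 in the control library, while APOA1, TTR and FGG were at 0 in both. The NEAT1 difference was 1166 CPM, and the part of these markers in it was not tested.

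**Figure D1:**
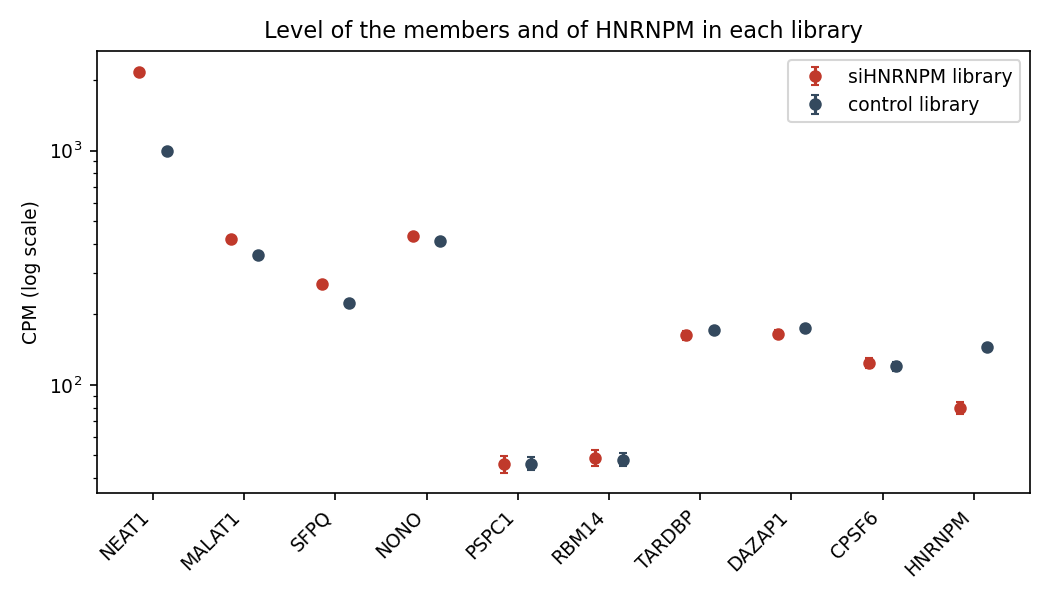
Level of each of the 9 genes and of HNRNPM, in CPM on a log axis, in the siHNRNPM library (red) and the control library (dark blue). Points are single libraries and bars are 95% Poisson counting intervals. NEAT1 stands at 2165 CPM in the siHNRNPM library against 999 CPM in the control library, and HNRNPM at 79.6 CPM against 144 CPM.

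MALAT1, the RNA of nuclear speckles, differed far less. It had 421 CPM (5510 reads) in the siHNRNPM library and 360 CPM (7158 reads) in the control library. The siHNRNPM library was 1.17-fold higher (1.13 to 1.21), a log2 ratio of 0.23 (0.17 to 0.28). In level and ratio it resembled many genes. Of 814 genes between 0.5 and 2 times its level, 87 had a higher ratio. Per read of MALAT1 the siHNRNPM library held 5.14 reads of NEAT1 and the control library 2.77. That ratio needs no scaling between libraries, and it was 1.85 times as high in the siHNRNPM library. The same comparison against the 7 protein genes gave 1.81 times for SFPQ at the low end and 2.29 times for TARDBP and DAZAP1 at the high end, so NEAT1 was higher relative to every other member.

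The protein genes lie elsewhere in the genome. In GENCODE, SFPQ spans chr1:35176378-35193148 (minus strand), NONO chrX:71283192-71301168 (plus), PSPC1 chr13:19674752-19783019 (minus) and RBM14 chr11:66616582-66627347 (plus). TARDBP spans chr1:11012344-11026420, DAZAP1 chr19:1407569-1435687 and CPSF6 chr12:69239537-69274358, all on the plus strand. The 3 genes of the DBHS family had different values. SFPQ, which is needed for paraspeckles to form, had 268 CPM (3510 reads) in the siHNRNPM library and 224 CPM (4448 reads) in the control library. The siHNRNPM library was 1.20-fold higher, a log2 ratio of 0.26 (0.20 to 0.33). This was the largest ratio among the 7 protein genes. NONO, the partner of SFPQ that is also needed for paraspeckles, had 431 CPM (5642 reads) in the siHNRNPM library and 410 CPM (8154 reads) in the control library. Its log2 ratio was 0.07 (0.02 to 0.12), a difference of 1.05-fold. PSPC1, the member of the family that paraspeckles can form without, had 45.7 CPM (598 reads) in the siHNRNPM library and 46.1 CPM (917 reads) in the control library. Its log2 ratio was -0.01 (-0.16 to 0.14), and its interval allows a fold between 0.892 and 1.10.

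RBM14 and DAZAP1 encode RNA-binding proteins that paraspeckles also need. RBM14 had 48.7 CPM (638 reads) in the siHNRNPM library and 48.0 CPM (954 reads) in the control library, a log2 ratio of 0.02 (-0.12 to 0.17). DAZAP1 had 165 CPM (2158 reads) in the siHNRNPM library and 174 CPM (3466 reads) in the control library. Its log2 ratio was -0.08 (-0.16 to -0.0023), so that its interval lay only just below a ratio of 1. The interval spanned 1 with total-count scaling, with upper-quartile scaling and with the control library thinned to equal depth.

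TARDBP and CPSF6 encode proteins known to affect which NEAT1 isoform is made. TARDBP had 162 CPM (2126 reads) in the siHNRNPM library and 172 CPM (3410 reads) in the control library. Its log2 ratio was -0.08 (-0.16 to 0.00027), and the interval lay below 1 under 4 of 6 other settings. CPSF6 had 124 CPM (1618 reads) in the siHNRNPM library and 120 CPM (2382 reads) in the control library, a log2 ratio of 0.05 (-0.05 to 0.14).

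In all, 1 of the 9 genes was at least 2-fold higher and 0 were at least 2-fold lower, beside 2.45% and 1.49% of all measured genes. Intervals lay above 1 for NEAT1, MALAT1, SFPQ and NONO, below 1 for DAZAP1, and spanned 1 for the other 4. The shares above and below 1 were 22% and 26.1% of all measured genes. They were 31.1% and 38.8% of those whose mean CPM reached 100. The median log2 ratio of the 9 was 0.05, and that of the 7 protein genes 0.02, from -0.08 to 0.26, against -0.01 for all measured genes. Since the genes were picked with these values known, nothing is read from these counts.

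**Figure D2:**
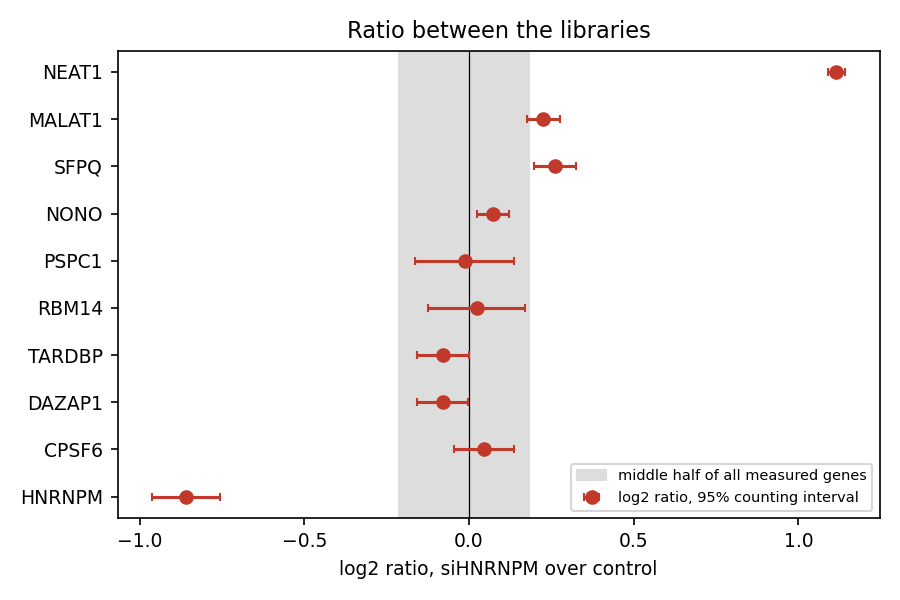
Log2 ratio, siHNRNPM over control, for each of the 9 genes and HNRNPM, with 95% counting intervals. The grey band holds the middle 50% of all measured genes, from -0.21 to 0.18. NEAT1 lies at 1.12 and HNRNPM at -0.86, while the 7 protein genes lie between -0.08 and 0.26.

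**Figure D3:**
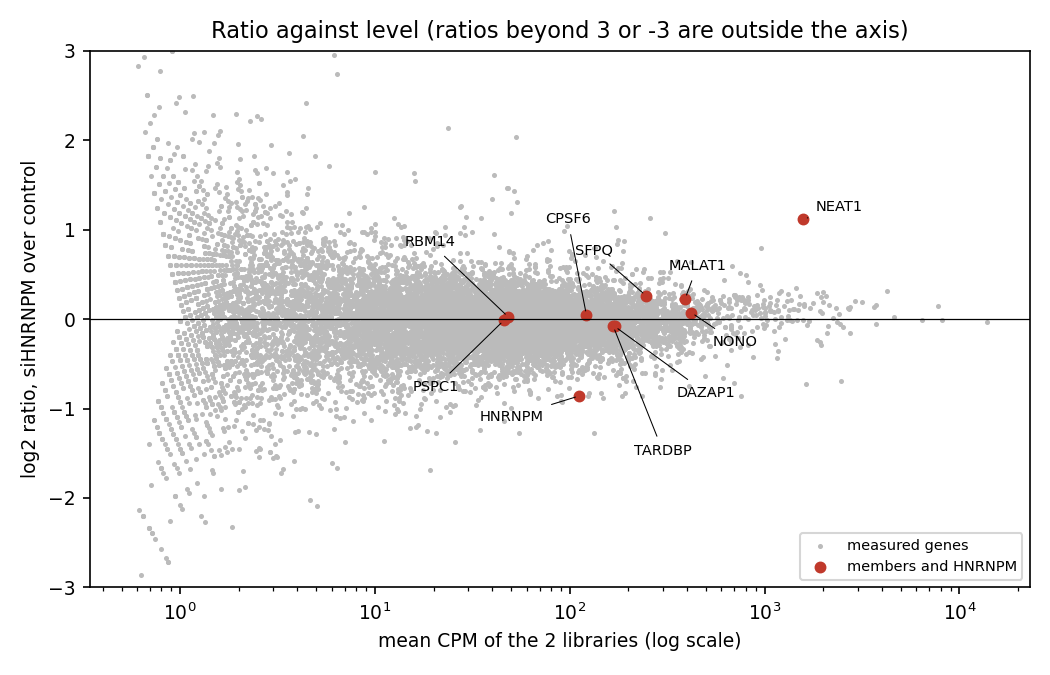
Log2 ratio, siHNRNPM over control, against the mean CPM of the 2 libraries on a log axis for 12925 measured genes (grey), with the 9 genes and HNRNPM in red. The scatter narrows with level, and NEAT1, at a ratio of 1.12, lies above the other genes of its abundance.

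Levels of different genes can be compared only per length, here as CPM per kilobase of all annotated exons. In the siHNRNPM library NEAT1 was highest at 95.1, followed by NONO at 81.5, MALAT1 at 47.7, SFPQ at 36.1 and TARDBP at 26.8 CPM per kilobase. DAZAP1, CPSF6, RBM14 and PSPC1 followed at 17.9, 15.3, 12.4 and 9.49. In the control library NONO was highest at 77.5, ahead of NEAT1 at 43.9, MALAT1 at 40.8, SFPQ at 30.1 and TARDBP at 28.2 CPM per kilobase. DAZAP1, CPSF6, RBM14 and PSPC1 followed at 18.9, 14.8, 12.2 and 9.57. By this length NEAT1 and NONO changed places, and the counting intervals of neighbours in each order did not overlap. The order rests on the lengths used. With the longest transcript of each gene in place of all exons, NONO was highest in both libraries, at 134 in the siHNRNPM library and 128 in the control library, and SFPQ stood above MALAT1 in both. NEAT1 (95.2) then stood above SFPQ (71.6) and DAZAP1 (41.8) in the siHNRNPM library, whereas in the control library SFPQ (59.7) stood above NEAT1 (43.9). The control levels of DAZAP1 (44.2) and NEAT1 had overlapping counting intervals at these lengths, so their order is not resolved. With the 3.441 kilobases of NEAT1-201 in place of its 22.767, the NEAT1 level was 629 in the siHNRNPM library and 290 in the control library. Within the DBHS family the level of SFPQ per length was 0.443 times that of NONO in the siHNRNPM library and 0.389 times in the control library. NONO per length was 8.59 times PSPC1 in the siHNRNPM library and 8.09 times in the control library.

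Reads of related loci were few. The pseudogenes NONOP1 and NONOP2 had 3 and 9 reads in the siHNRNPM library against 4 and 13 in the control library. PSPC1P1 had 0 reads in the siHNRNPM library and 7 in the control library, and TARDBPP2 had 5 in the siHNRNPM library and 0 in the control library. The readthrough gene RBM14-RBM4, SFPQP1 and MIR612, which lies inside NEAT1, had 0 in both. The sources used here do not say whether reads were counted by strand, so reads of an antisense RNA at MALAT1 could have been counted with it. GENCODE metadata listed 0 transcripts of the 9 genes outside the primary assembly.

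Genes of other proteins reported at paraspeckles lay on both sides. Of 29 measured, the intervals of 12 lay above 1, those of 10 below and those of 7 spanned it, with a median log2 ratio of 0.04. Of all measured genes 22% lay above and 26.1% below, and of those whose mean CPM reached 100, 31.1% and 38.8%. HNRNPK had the lowest ratio of the list, at -0.66 (-0.70 to -0.62), from 6177 reads in the siHNRNPM library and 14815 in the control library. HNRNPM, the targeted gene, was left out of this list and had a lower ratio, -0.86. Reads of HNRNPK can be shared with its processed pseudogenes, and how the authors counted them is not known. AHDC1 had -0.57 and SMARCA2, which encodes an ATPase of the SWI/SNF chromatin remodellers, -0.30. The genes of the cold-inducible RNA-binding proteins CIRBP and RBM3 were both higher, at 0.79 (0.71 to 0.88) and 0.46 (0.39 to 0.53). RBM12 had 0.50 and RBM7, a part of a complex that hands nuclear RNA to the exosome, 0.37. HNRNPR (0.96) and the RNA-binding protein gene TAF15 (0.63) rested on 120 and 108 reads in the siHNRNPM library against 94 and 106 in the control library. Both also have copies on alternate sequences of the genome, so their counts are uncertain.

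Genes of the machinery that makes 3′ ends also lay on both sides. Of 19 measured cleavage and polyadenylation factors, the intervals of 4 lay above 1, of 5 below and of 10 spanned it, with a median of 0.08. These counts are close to the 22% above and 26.1% below among all measured genes. NUDT21, which binds TGTA together with CPSF6 at the site printed above, had -0.22 (-0.28 to -0.16), from 3556 reads in the siHNRNPM library and 6312 in the control library. RBBP6 had -0.55 (-0.67 to -0.43) and the poly(A) polymerase gene PAPOLG -0.21. CPSF3, the endonuclease that cuts the RNA, had 0.29 (0.16 to 0.41), FIP1L1 0.23 and CSTF3 0.22. Of 11 measured genes for RNase P, the tRNA-end nuclease ELAC2 and the triple-helix binder METTL16, 3 lay above 1, 1 below and 7 spanned it, with a median of 0.03. POP5 and RPP14, both RNase P subunits, had 0.26 and 0.21, ELAC2 had 0.14 and METTL16 -0.21.

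Of 9 other nuclear RNAs measured, the intervals of 4 lay above 1, of 0 below and of 5 spanned it, beside 22% above and 26.1% below of all measured genes. Their median of 0.42 is the value of RN7SK, the RNA of the 7SK particle, whose interval was wide (-0.20 to 1.03), and the median was 0.28 at a CPM of 5 or more. HOTAIR had the lowest ratio, -1.34, from 6 reads in the siHNRNPM library and 23 in the control library, with an interval that spanned 1. XIST, which was not on the list, had 1602 CPM (20961 reads) in the siHNRNPM library and 1680 CPM (33410 reads) in the control library. The log2 ratio of XIST was -0.07 (-0.09 to -0.04), so its interval lay below 1. LINC-PINT had 434 CPM (5685 reads) in the siHNRNPM library and 277 CPM (5511 reads) in the control library, a log2 ratio of 0.65 (0.59 to 0.70). TUG1, the next most abundant of the list, had 0.07 (-0.01 to 0.14). JPX had 0.58 (0.24 to 0.91), the imprinted antisense RNA KCNQ1OT1 0.49 (0.21 to 0.77), and MIAT 1.43 (0.17 to 2.79) from 16 reads in the siHNRNPM library and 9 in the control library. Of 589 long non-coding RNAs measured, the intervals of 182 lay above 1, of 45 below and of 362 spanned it, with a median of 0.20. Of 11079 protein-coding genes, 2405 lay above, 3182 below and 5492 spanned it, with a median of -0.02. Of the 589 long non-coding RNAs, 82 were at least 2-fold higher and 11 at least 2-fold lower. Among all 12925 measured genes the numbers were 317 (2.45%) and 193 (1.49%). The 2-fold differences lay almost wholly at low levels. Of the 105 long non-coding RNAs whose mean CPM reached 10, only 1, NEAT1, was at least 2-fold higher and 0 were at least 2-fold lower. The highest log2 ratio among the 589 was 5.60. The median was 0.14 over the 105 long non-coding RNAs whose mean CPM reached 10 and 0.12 over the 14 that reached 100. NEAT1 had the highest ratio in both of these smaller sets.

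**Figure D4:**
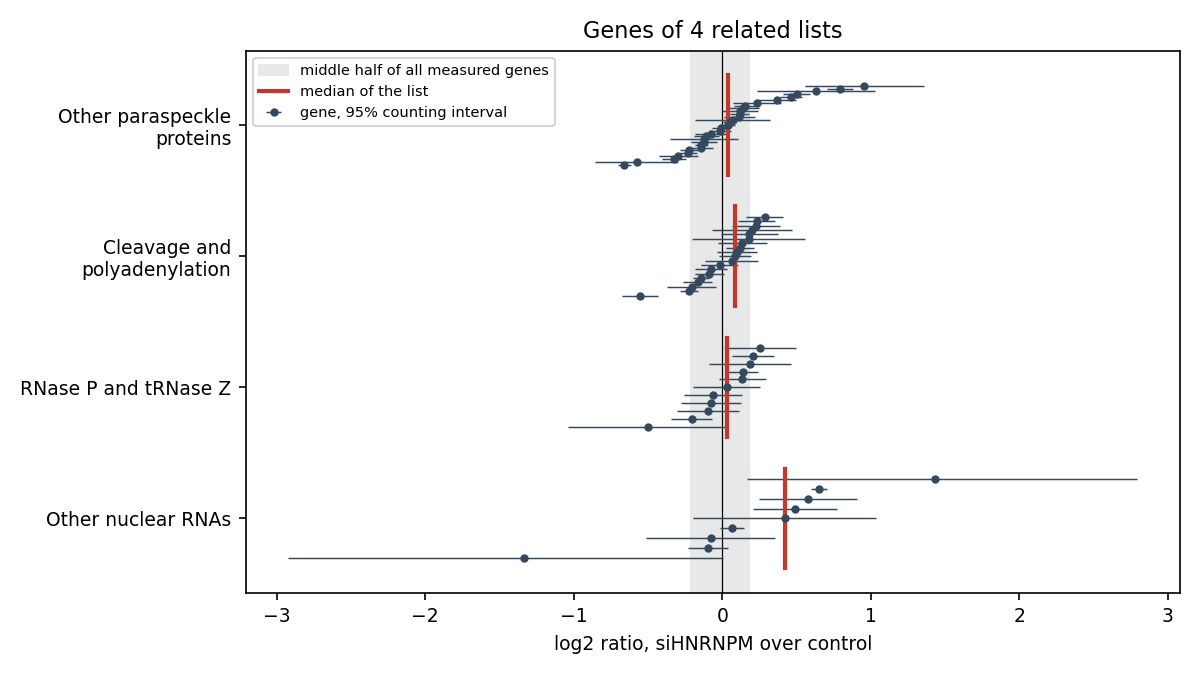
Log2 ratios, siHNRNPM over control, of the measured genes of 4 lists, with 95% counting intervals and the median of each list as a red bar. The grey band holds the middle 50% of all measured genes. The medians are 0.04, 0.08, 0.03 and 0.42 from top to bottom.

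No measured gene around NEAT1 and MALAT1 had a ratio as high as that of NEAT1. The annotation lists 35 genes within 200 kilobases of either, of which 23 were in the table of counts. Of 15 measured genes within 200 kilobases of either, the intervals of 6 lay above 1, of 1 below and of 8 spanned it, with a median of 0.11, beside 22% above and 26.1% below of all measured genes. FRMD8, the nearest measured gene upstream of NEAT1, had 0.29 (0.09 to 0.49). LTBP3, which encodes a protein that binds latent TGF-beta, had 0.38 (0.21 to 0.54). SLC25A45 and CDC42EP2 had the highest ratios, 0.50 (0.06 to 0.95) and 0.45 (0.03 to 0.88). They rested on 84 and 92 reads in the siHNRNPM library, against 90 and 102 in the control library. POLA2 had 0.20, and RELA, which encodes a subunit of NF-kB, had -0.10 (-0.19 to -0.01). The highest upper bound among the 15 was that of TIGD3, at 1.12, from 20 reads in the siHNRNPM library and 26 in the control library. The interval of TIGD3 thus took in the ratio of NEAT1, 1.12.

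**Figure D5:**
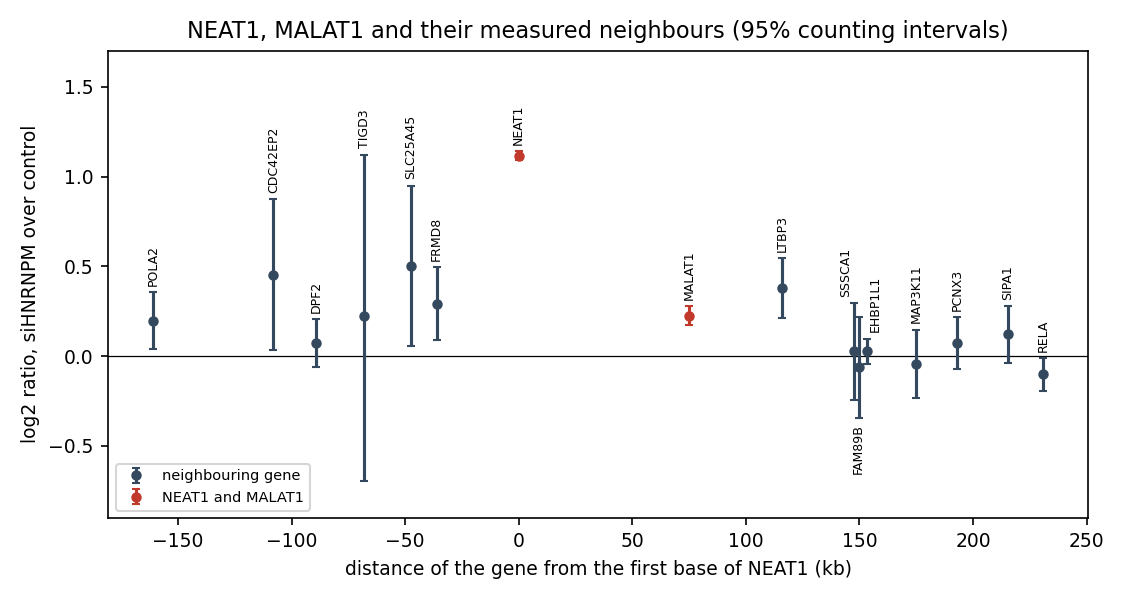
Log2 ratio, siHNRNPM over control, of NEAT1, MALAT1 and 14 measured neighbouring genes against the distance of each gene from the first base of NEAT1 in kilobases, with 95% counting intervals. NEAT1 lies at 1.12, MALAT1 at 0.23 and the neighbours between -0.10 and 0.50.

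Of genes reported to be controlled by NEAT1 through SFPQ, the chemokine gene CXCL8 had 255 reads in the siHNRNPM library and 326 in the control library. Its log2 ratio was 0.25 (0.0069 to 0.49), so that its interval lay only just above a ratio of 1. DESeq2 size-factor scaling shifted log2 ratios by -0.0091, which exceeds that margin, so the side is not stable. The other gene, ADARB2, had 0 reads in the siHNRNPM library and 1 in the control library. The measured genes nearest to NEAT1 in log2 CPM over the 2 libraries were HSPA5, LAMB3 and CALR, at distances of 0.54, 0.61 and 0.64. Their log2 ratios of 0.35, 0.26 and 0.28 were all under that of NEAT1. Those nearest to MALAT1 were SPCS3, GDI2 and RPL17P7, at distances of 0.0030, 0.049 and 0.049.

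Other features of the libraries are given as values. Clustered histone genes, whose RNAs lack a poly(A) tail, took 0.00749% of reads in the siHNRNPM library and 0.00758% in the control library. Small nuclear and nucleolar RNA symbols took 0.0369% in the siHNRNPM library and 0.0368% in the control library. Fibroblast markers summed to 3.59 CPM in the siHNRNPM library, against 1.56 CPM in the control library. Endothelial and erythroid markers had at most 2 reads each. The leukocyte gene CD68 had 885 CPM in the siHNRNPM library, against 765 CPM in the control library, whereas PTPRC, CD3E, CD14 and CD79A had at most 5 reads in either library. Of the colorectal epithelial markers, KRT8, KRT18, EPCAM and CDX2 were read in both libraries, with 450, 433, 151 and 106 reads in the siHNRNPM library and 547, 632, 179 and 212 reads in the control library. KRT20 and LGR5 were at 0 in both libraries, VIL1 and KRT19 had at most 1 read, and CDH1 had 1 read in the siHNRNPM library and 10 in the control library.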

How the data were processed

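Expression was measured by RNA-seq of total RNA in 1 siHNRNPM and 1 control library. The libraries were grouped by their treatment labels and tied to columns of the table by title. How fully RNA without a poly(A) tail entered the libraries was not tested, which limits how the levels of NEAT1 and MALAT1 can be read. The authors deposited raw counts of reads, 1 value per symbol and library. HISAT2 2.0.4 and GRCh38 are listed, without a role, per the submitters' processing notes. The counting tool, annotation, strand setting and treatment of multi-mapped reads are not given in the sources used here, so reads of copies and overlapping genes are uncertain.

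Library totals were 13056118 and 19931360 reads in the siHNRNPM and the control library. Counts were scaled by TMM in edgeR 4.0.16 (R 4.3.3), with factors of 1.00 and 0.998. A count of 0 was set to 0.5 in ratios. Ratios carry 95% intervals, derived by the exact Clopper-Pearson method from how a gene's reads divide between libraries, and levels carry exact Poisson intervals (SciPy 1.17.1). The procedure was tested on simulated Poisson counts with fixed library sizes, the model that the intervals assume. Variation between cultures, PCR copies and the scaling were therefore not checked by it. Lists were read by counts and medians. Named genes were the 9 genes, HNRNPM, up to 10 other paraspeckle proteins and up to 6 genes per other list with the largest ratio whose interval left out 1, and the 3 genes nearest to NEAT1 or MALAT1. RELA, TIGD3, TUG1, RN7SK, HOTAIR, XIST, ADARB2, SEMA3A and HMOX1 were named after their values were seen. Single values of 2 listed genes are not reported here. The members and lists were chosen with earlier results of these data known. Positions, lengths and transcript sequences are those of GENCODE release 29, and biotypes came from RefSeq and GENCODE names. Alternatives covered scaling, depth, filters, intervals, the value for 0, copies and gene length.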

Additional observations from a re-analysis of the deposited data

How the results depend on the processing

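NEAT1 kept its direction and stayed at least 2-fold higher under every alternative tried, with log2 ratios from 1.11 to 1.15, and its highest value came with upper-quartile scaling (1.15). MALAT1 (0.21 to 0.26), SFPQ (0.25 to 0.29) and NONO (0.06 to 0.10) also kept intervals above 1 under 6 of 6 scaling, depth and interval settings. HNRNPM ranged from -0.87 to -0.82. The interval of DAZAP1 spanned 1 under 3 of these 6 settings, and that of TARDBP lay below 1 under 4 of 6, so neither side is stable. No scaling moved the median of all genes by more than 0.035. Counts of genes at least 2-fold higher and lower were 602 and 301 with no CPM filter and 70 and 50 at a CPM of 5 or more, which change how many genes are compared, and 146 and 131 among protein-coding genes only. The median for CXCL8 and ADARB2 was -0.074 with no CPM filter, which adds ADARB2. Levels per length depended on the length taken. With the longest transcript, SFPQ, NONO, PSPC1, RBM14, TARDBP, DAZAP1 and CPSF6 had 71.6, 134, 19.0, 17.2, 30.3, 41.8 and 16.4 CPM per kilobase in the siHNRNPM library and 59.7, 128, 19.2, 17.0, 32.0, 44.2 and 15.9 in the control library. With the short NEAT1-201, a length chosen after the data were seen, NEAT1 had 629 in the siHNRNPM library and 290 in the control library. No paired analysis was possible because each group has 1 library, so no library could be left out either. Depth limits PSPC1 and RBM14 most, with under 1000 reads in either library.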

Other observations

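The long non-coding RNAs named here were chosen after their values were seen, and each had a lower ratio than NEAT1. LOC101929380 had 74.7 CPM in the siHNRNPM library, against 46.0 CPM in the control library, a log2 ratio of 0.70 (0.57 to 0.83). SNHG7, a snoRNA host transcript, had 61.1 CPM in the siHNRNPM library, against 41.5 CPM in the control library, a log2 ratio of 0.56 (0.42 to 0.70). NORAD, a mostly cytoplasmic RNA that binds Pumilio proteins, had 703 CPM in the siHNRNPM library, against 645 CPM in the control library (0.12, 0.08 to 0.16). The snoRNA host GAS5 had 155 CPM in the siHNRNPM library, against 167 CPM in the control library (-0.10, -0.18 to -0.02).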
